A study of Mus musculus with 2 samples.

Results

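The messenger RNAs of 9 genes of insulin signaling were followed from the receptor at the cell surface to the transcription factors that it controls. These were *Insr*, *Irs1*, *Irs2*, *Pik3r1*, *Pik3ca*, *Akt1*, *Akt2*, *Foxo1* and *Foxo3*, taken from the table by their symbols. They were 9 of the 45777 gene symbols in the transcript table, and the estimated read counts of the transcripts of each symbol were summed. All 9 reached at least 10 counts in at least 1 library and so were among the 15857 genes compared.

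The livers came from C57BL/6 mice (C57BL/6 N in the methods of the study) on a high-fat diet (HFD), a model of metabolic dysfunction-associated steatotic liver disease. The diet began at 7 weeks of age and lasted 18 weeks, and the virus was given into the retro-orbital sinus at week 13 of the diet, 5 weeks before the end. One group received an adeno-associated virus encoding green fluorescent protein (AAV-GFP) and served as the control. The other group received AAV-*Wee1-AS*, which overexpresses a long noncoding RNA. HFD and a viral infusion were therefore common to both groups. The vector was described as serotype AAV9 with a CMV promoter, which is not restricted to hepatocytes. The sex of these mice, and whether a library held RNA of 1 mouse or of several, are not given in the sources used here. The level of *Wee1-AS* itself was not analysed here.

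Insulin binds its receptor on the hepatocyte, and the activated receptor phosphorylates the docking proteins IRS1 and IRS2. These recruit phosphoinositide 3-kinase (PI3K), a pair of a regulatory subunit (encoded by *Pik3r1*) and a catalytic subunit (encoded by *Pik3ca*), and the lipid that PI3K makes brings AKT to the membrane to be activated. AKT phosphorylates FOXO1 and FOXO3, which then leave the nucleus. In the fasted liver, nuclear FOXO1 drives genes of glucose output and also the genes of IRS2 and of the receptor, so that signaling and transcription are linked in a loop. Phosphorylation and location of these proteins are not measured by RNA sequencing.

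Each group was represented by 1 library of poly-A RNA, and the estimated counts totaled 55466182 (AAV-GFP) and 48079335 (AAV-*Wee1-AS*). With 1 library per group there was no replicate check, and no test between the groups was possible. The intervals given here are exact (Clopper-Pearson) 95% intervals of the ratio of the scaled counts in the 2 libraries and cover counting error only. They treat the deposited counts as reads, although these were derived from coverage. They do not cover differences between mice, nor the sharing of reads among overlapping transcripts, nor reads copied from 1 molecule by PCR. A log2 ratio is the AAV-*Wee1-AS* library over the AAV-GFP library throughout.

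Of the 9 genes, 4 had ratios above 2 (*Insr*, *Irs1*, *Pik3r1* and *Pik3ca*), and none had a ratio below 0.5. The share of all genes above 2-fold was 22.2%, the share below 0.5-fold was 8.71%, and 31.0% were past either limit. The counting intervals of these 4 genes lay wholly above 2-fold. Over the 9 genes, 7 had an interval above a log2 ratio of 0, and *Akt1* and *Akt2* had intervals below it. The shares of all genes with such intervals are not given here, so these interval counts are not read as particular to the 9 genes. With upper quartile factors, *Foxo1* (0.04) and *Irs2* (0.08) lay within their counting error of 0. The median log2 ratio of the 9 genes was 0.49, beside -0.02 for all genes, whose middle 95% ran from -1.82 to 2.52. The ratios of these 2 libraries followed how GC-rich and how long a transcript was, and after both trends were removed 1 of the 9 genes (*Irs1*) was above 2-fold, beside 7.39% of the 14995 genes with a known sequence.

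**Figure D1:**
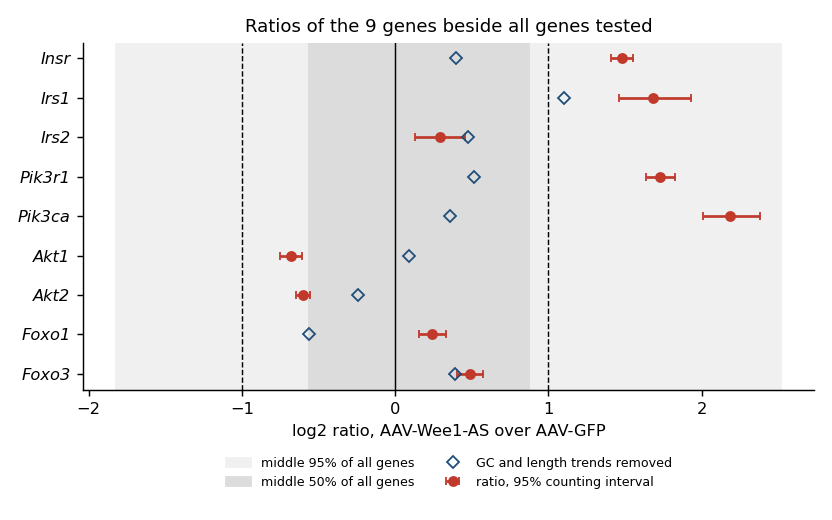
Log2 ratios (x axis, AAV-*Wee1-AS* over AAV-GFP) of the 9 genes (y axis). Filled circles with bars give the ratio and its 95% counting interval, open diamonds the value after GC and length trends were removed, bands the middle 50% and 95% of all genes, and dashed lines 2-fold; 4 circles lie beyond 2-fold and 1 diamond does.

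*Insr* encodes the insulin receptor and lies at chr8:3150922-3279649 on the minus strand (mm10, NCBI Gene 16337). It had 2262 counts in AAV-GFP and 5250 in AAV-*Wee1-AS*. The level per length was 7.30 TPM (transcripts per kilobase of length, scaled so that every library has the same sum) in AAV-GFP and 20.01 TPM in AAV-*Wee1-AS*. The ratio was 2.78-fold, a log2 ratio of 1.48 (1.41 to 1.55), and 86.4% of all genes had a lower ratio. With the GC and length trends removed, the log2 ratio was 0.40. In a bulk tissue, a change in the share of a cell type and a change in RNA per cell cannot be told apart, here and for all genes that follow.

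The receptor is made in 2 forms that differ by a short exon of 36 bases, coding for 12 residues at the end of the extracellular alpha subunit. The form with the exon is the main form of the liver, and the form without it binds the growth factor IGF2 more tightly. The exon lies at chr8:3181702-3181737 on the minus strand (GRCm38, GENCODE transcript Insr-203). It is shown because the transcripts of *Insr* were told apart by it. The lines below give the joined messenger RNA with the exon in capitals between 20 bases of each neighbouring exon, and the same junction of transcript Insr-201 without it.
Insr with the exon: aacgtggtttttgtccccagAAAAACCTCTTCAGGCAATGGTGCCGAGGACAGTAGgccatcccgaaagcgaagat
Insr without the exon: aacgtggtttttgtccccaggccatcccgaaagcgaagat

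Nearly all *Insr* counts were assigned to the 2 transcripts with this exon. Transcript NM_001330056 had 1773 counts in AAV-GFP and 3695 in AAV-*Wee1-AS*, and the predicted transcript XM_006508700 had 489 and 1395. The transcripts without the exon, below a share of 10% and chosen after their values were seen, were NM_010568 with 0 and 75 counts and XM_006508701 with 0 and 85. Together these made 0 of 2262 counts in AAV-GFP, where the exact interval reached up to 0.163% and the floor of 3 counts is 0.133%. In AAV-*Wee1-AS* they made 160 of 5250, a share of 3.05% (exact interval 2.60 to 3.55%). By these assigned counts, the form without the exon was at least 64.0-fold higher in AAV-*Wee1-AS*, against a floor of 3 counts in the AAV-GFP library. At the share of the AAV-*Wee1-AS* library, the AAV-GFP library would have been assigned 68.9 such counts. The bound, the exact interval and this number treat assigned counts as separate reads. Only reads over the exon or its junction tell the forms apart, and their number is not known here. The size of the difference between the forms is therefore uncertain. The counts with the exon had a log2 ratio of 1.43 (1.36 to 1.51), so the gene's ratio came mainly from the form with the exon. An estimate of 0 can come from how reads were shared out among transcripts that differ by 36 bases alone, and reads across the junction were not analysed here.

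*Irs1* and *Irs2* encode the main docking proteins of the receptor in the liver. *Irs1* (chr1:82233105-82291439, minus strand, NCBI Gene 16367) had 206 counts in AAV-GFP and 555 in AAV-*Wee1-AS*. The level was 0.682 TPM in AAV-GFP and 2.17 TPM in AAV-*Wee1-AS*, the lowest of the 9 genes in both libraries. The ratio was 3.21-fold, a log2 ratio of 1.68 (1.46 to 1.93), and it was the gene of the 9 with the highest value after removal of the trends, 1.10. On TPM or FPKM with a pseudocount of 1, *Irs1* was no longer above 2-fold, with log2 ratios of 0.91 and 0.63. Its transcript had a GC content of 50.3%, and among all genes of similar GC content 7.40% were above 2-fold. Of the 4 genes above 2-fold, *Irs1* also rested on the fewest counts.

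*Irs2* (chr8:10984681-11008929, minus strand, NCBI Gene 384783) had 619 counts in AAV-GFP and 631 in AAV-*Wee1-AS*. After scaling for library size this was a ratio of 1.22-fold, a log2 ratio of 0.29 (0.13 to 0.45), and 0.48 with the trends removed. The level was 2.77 TPM in AAV-GFP and 3.33 TPM in AAV-*Wee1-AS*. The interval of *Irs2* did not overlap that of *Irs1*, and the values of the pair lay closer together with the trends removed (1.10 and 0.48). *Irs2* was 4.06 times *Irs1* in TPM in AAV-GFP and 1.53 times in AAV-*Wee1-AS*. Both genes were represented by a single transcript each, and no other detected gene overlapped them.

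The promoters of the docking protein genes are shown because *Irs2* is a known target of FOXO1, beside that of *Igfbp1*, a secreted protein whose gene is a standard readout of FOXO1 in the liver. Each line holds the 250 bases before the gene's start, 5′ to 3′ on the strand of the gene (RefSeq, GRCm38.p6): *Irs1* chr1:82291440-82291689 (minus), *Irs2* chr8:11008930-11009179 (minus) and *Igfbp1* chr11:7197537-7197786 (plus). Capitals mark CAAAACA, a core of insulin response sequences to which FOXO proteins can bind, in this form or as TGTTTTG on the other strand, and the E-box CACGTG, a site of basic helix-loop-helix factors. In *Irs1*, the capitals hold CACGTG and TGTTTTG overlapping by their shared letters.
Irs1 promoter: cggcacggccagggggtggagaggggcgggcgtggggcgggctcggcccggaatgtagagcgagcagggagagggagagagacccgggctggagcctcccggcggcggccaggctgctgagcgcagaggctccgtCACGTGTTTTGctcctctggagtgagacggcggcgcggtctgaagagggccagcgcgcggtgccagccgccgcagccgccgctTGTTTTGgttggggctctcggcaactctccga
Irs2 promoter: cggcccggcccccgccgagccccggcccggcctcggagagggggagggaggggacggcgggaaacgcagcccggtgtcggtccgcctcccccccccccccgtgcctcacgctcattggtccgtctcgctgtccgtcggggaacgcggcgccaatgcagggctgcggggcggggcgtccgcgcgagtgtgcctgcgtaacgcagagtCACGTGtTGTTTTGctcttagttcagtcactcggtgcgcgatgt
Igfbp1 promoter: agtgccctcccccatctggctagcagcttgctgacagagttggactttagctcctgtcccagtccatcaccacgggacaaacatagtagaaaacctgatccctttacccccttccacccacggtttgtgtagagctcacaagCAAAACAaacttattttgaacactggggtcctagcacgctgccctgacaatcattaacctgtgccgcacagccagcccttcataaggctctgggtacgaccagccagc

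CAAAACA or its reverse complement began 111 and 32 bases before the start of *Irs1*, 37 bases before that of *Irs2* and 108 bases before that of *Igfbp1*. CACGTG began 115 bases before the start of *Irs1* and 44 bases before that of *Irs2*. Of all 32851 windows of this length, 5.56% held CAAAACA and 6.02% held CACGTG on either strand. Of the 9 genes, 8 had a window (13 windows in all), and *Insr* had none. Of these 13 windows, 2 held CAAAACA and 2 held CACGTG, namely those of *Irs1* and *Irs2*. The FOXO binding element GTAAACA, found in 3.17% of all windows, was in 1 of the 8 genes, as TGTTTAC 161 bases before an upstream start of *Akt1*, that of NM_001331107 with 15 and 22 counts. The window of the main *Akt1* transcript NM_009652 did not hold it. These matches describe letters and no binding was measured. *Irs1* and *Irs2* shared both motifs and had log2 ratios of 1.68 and 0.29, while *Igfbp1* had 1832 counts in AAV-GFP and 697 in AAV-*Wee1-AS*, a log2 ratio of -1.13 (-1.26 to -1.004). Of the 15 FOXO1-activated genes with a window, 3 held CAAAACA on either strand, and the other 2, *G6pc* and *Ccng2*, had log2 ratios of 0.46 and 0.86, so genes with this motif lay on both sides of 0.

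*Pik3r1* encodes the regulatory subunit of PI3K, which stabilises the catalytic subunit and links it to phosphorylated IRS proteins. It lies at chr13:101680761-101768217 on the minus strand (NCBI Gene 18708). The gene had 1168 counts in AAV-GFP and 3231 in AAV-*Wee1-AS*, with levels of 5.44 and 16.4 TPM. The ratio was 3.32-fold, a log2 ratio of 1.73 (1.63 to 1.83), and 0.51 with the trends removed.

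The sum over *Pik3r1* joined transcripts whose ratios had opposite signs. The gene has several start sites, and the transcripts share their 3′ exons. Transcript NM_001077495, whose coding sequence of 724 residues is that of p85α, had 583 counts in AAV-GFP and 2342 in AAV-*Wee1-AS*, a log2 ratio of 2.27 (2.14 to 2.40). Transcript NM_001024955 begins at an internal start and codes for the shorter form p55α of 454 residues, which lacks the first part of p85α. It had 461 counts in AAV-GFP and 111 in AAV-*Wee1-AS*, a log2 ratio of -1.77 (-2.10 to -1.49). The predicted transcript XM_006517569, which also begins inside the gene, had 124 and 769 counts, a log2 ratio of 2.87 (2.62 to 3.18).

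As shares of the gene's counts, the p85α transcript held 49.9% (47.0 to 52.8%) in AAV-GFP and 72.5% (70.9 to 74.0%) in AAV-*Wee1-AS*. The p55α transcript held 39.5% (36.7 to 42.3%) in AAV-GFP and 3.44% (2.83 to 4.12%) in AAV-*Wee1-AS*. The predicted transcript held 10.6% and 23.8%. None of these exact intervals of the p85α and p55α transcripts overlapped between the libraries. By TPM in place of counts, which allows for transcript length and was tried after the data were seen, the p55α transcript held 44.1% and 4.13%. Both values lay above the exact intervals of the shares by counts, so those intervals do not cover the choice of measure. Since most of their sequence is shared, the split between these transcripts rests on reads over the first exons.

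**Figure D2:**
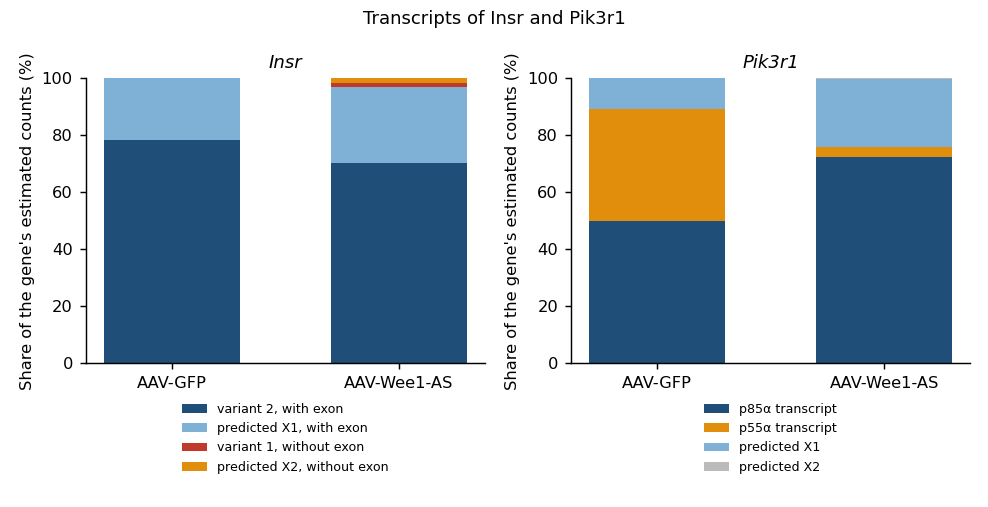
Share of each gene's estimated counts (y axis, percent) held by its transcripts in the 2 libraries (x axis), for *Insr* (left) and *Pik3r1* (right). Transcripts of *Insr* without the 36-base exon appear in AAV-*Wee1-AS* alone, at 3.05%, and the p55α transcript of *Pik3r1* goes from 39.5% in AAV-GFP to 3.44% in AAV-*Wee1-AS*.

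The start sites of the p85α and p55α transcripts are shown because the log2 ratios of these transcripts had opposite signs. The start of the predicted XM_006517569, also internal and with a log2 ratio of 2.87, is not part of this comparison. The lines give the 250 bases before the p85α start (chr13:101768218-101768467, minus strand) and before the p55α start (chr13:101692631-101692880, minus strand), from RefSeq on GRCm38.p6, with each CpG in capitals.
Pik3r1 p85α start: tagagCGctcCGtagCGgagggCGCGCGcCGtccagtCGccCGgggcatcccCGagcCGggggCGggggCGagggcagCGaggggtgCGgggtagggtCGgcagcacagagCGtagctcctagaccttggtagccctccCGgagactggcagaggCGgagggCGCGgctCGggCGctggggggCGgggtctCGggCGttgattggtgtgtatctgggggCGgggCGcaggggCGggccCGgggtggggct
Pik3r1 p55α start: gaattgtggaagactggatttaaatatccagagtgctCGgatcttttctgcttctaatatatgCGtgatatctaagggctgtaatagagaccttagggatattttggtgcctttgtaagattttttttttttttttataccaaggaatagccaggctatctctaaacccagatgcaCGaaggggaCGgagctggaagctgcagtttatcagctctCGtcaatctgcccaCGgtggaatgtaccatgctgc

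The window of the p85α start had a GC content of 76.4% and 30 CpG, and that of the p55α start had 42.4% and 6 CpG. The medians of all windows were 52.4% GC and 6 CpG. The p85α start thus lay in a CpG-rich window and the p55α start in a window with the CpG number of the median. Neither window held any of the motifs named above.

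*Pik3ca* encodes p110α, the catalytic subunit of PI3K that acts downstream of the insulin receptor in the liver. It lies at chr3:32397065-32466112 on the plus strand (NCBI Gene 18706). The gene had 297 counts in AAV-GFP and 1132 in AAV-*Wee1-AS*, and levels of 1.17 and 5.22 TPM. Its ratio of 4.55-fold, a log2 ratio of 2.19 (2.01 to 2.38), was the highest of the 9 genes, and 95.3% of all genes had a lower one. Both of its main transcripts were higher in AAV-*Wee1-AS*, NM_008839 with 127 and 509 counts (log2 ratio 2.25) and the predicted XM_006535409 with 170 and 617 (2.11). *Pik3ca* also had the lowest GC content of the 9 genes, 41.2%, and among genes of similar GC content the median log2 ratio was 1.43 and 65.3% were above 2-fold. With the trends removed, its log2 ratio was 0.36.

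*Akt1* and *Akt2* encode the kinases that carry the signal from PI3K to its targets, AKT2 being the form most tied to glucose control. Both were lower in AAV-*Wee1-AS*, short of 2-fold. *Akt1* (chr12:112653821-112674884, minus strand, NCBI Gene 11651) had 4521 counts in AAV-GFP and 2354 in AAV-*Wee1-AS*, with levels of 51.0 and 31.4 TPM. Its log2 ratio was -0.68 (-0.75 to -0.61), or 1.60-fold lower, and 0.09 with the trends removed, so the sign depended on that step. *Akt1* had the highest GC content of the 9 genes, 59.7%, and the median log2 ratio of genes of similar GC content was -0.69.

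*Akt2* (chr7:27591552-27640826, plus strand, NCBI Gene 11652) had 11181 counts in AAV-GFP and 6129 in AAV-*Wee1-AS*. The level was 77.9 TPM in AAV-GFP and 50.7 TPM in AAV-*Wee1-AS*, the highest of the 9 genes in both libraries. The log2 ratio was -0.60 (-0.65 to -0.56), or 1.52-fold lower, and -0.24 with the trends removed. Its intervals and those of *Akt1* overlapped, and *Akt2* was 1.53 times *Akt1* in TPM in AAV-GFP and 1.61 times in AAV-*Wee1-AS*. The pair thus kept nearly the same ratio to each other in these libraries.

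The main transcripts of both kinases followed their genes. For *Akt1*, NM_009652 had 4405 and 2056 counts, 97.4% and 87.3% of the gene. The predicted XM_006515415, under 10% of the gene and chosen after its values were seen, had 24 and 198 counts. For *Akt2*, NM_001110208 had 9312 and 4998 counts, 83.3% and 81.5% of the gene. Among the other 10 *Akt2* transcripts, NM_007434, also chosen after its values were seen, had 452 and 15 counts.

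*Foxo1* and *Foxo3* encode the FOXO transcription factors that AKT keeps out of the nucleus. *Foxo1* (chr3:52268337-52350109, plus strand, NCBI Gene 56458) had 2170 counts in AAV-GFP and 2139 in AAV-*Wee1-AS*, and levels of 11.9 and 13.8 TPM. After scaling for library size, its log2 ratio was 0.24 (0.16 to 0.33), or 1.18-fold, and -0.56 with the trends removed, so the sign depended on that step. The GC content and length used for *Foxo1* came from a GENCODE transcript of 8665 bases, longer than the 5552 bases of the transcript in the table.

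*Foxo3* (chr10:42181845-42276695, minus strand, NCBI Gene 56484) had 2153 counts in AAV-GFP and 2517 in AAV-*Wee1-AS*, with levels of 9.60 and 13.01 TPM. The log2 ratio was 0.49 (0.41 to 0.57), or 1.40-fold, and 0.39 with the trends removed. Nearly all counts fell on the predicted transcript XM_006512806, with 2125 and 2517 counts. The predicted gene *Gm38485* overlaps *Foxo3* and had 23 and 40 counts. Among the 9 genes, *Foxo3* was the only one with an overlapping gene that had counts. *Foxo1* stood at 1.24 times *Foxo3* in TPM in AAV-GFP and 1.06 times in AAV-*Wee1-AS*.

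**Figure D3:**
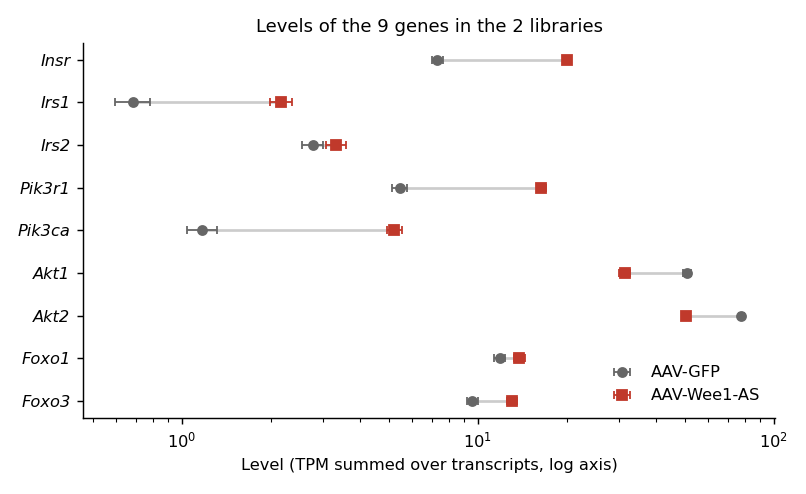
Levels of the 9 genes (y axis) in TPM on a log axis (x axis), with circles for AAV-GFP and squares for AAV-*Wee1-AS*, 1 library each. Bars give 95% counting intervals, and *Akt2* is the highest and *Irs1* the lowest gene in both libraries.

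By level per length, the order in AAV-GFP was *Akt2*, *Akt1*, *Foxo1*, *Foxo3*, *Insr*, *Pik3r1*, *Irs2*, *Pik3ca* and *Irs1*. No neighbours in this order had overlapping counting intervals. In AAV-*Wee1-AS*, *Insr* and *Pik3r1* stood above both FOXO genes and *Pik3ca* above *Irs2*, and the intervals of *Foxo1* (13.2 to 14.4 TPM) and *Foxo3* (12.5 to 13.5 TPM) overlapped. *Akt2* was 10.7 times *Insr* in TPM in AAV-GFP and 2.53 times in AAV-*Wee1-AS*. Between the ends of the pathway, *Foxo1* was 1.62 times *Insr* in AAV-GFP and 0.69 times in AAV-*Wee1-AS*. Within PI3K, *Pik3r1* was 4.66 times *Pik3ca* in AAV-GFP and 3.14 times in AAV-*Wee1-AS*. *Insr* was 2.64 times *Irs2* in AAV-GFP and 6.01 times in AAV-*Wee1-AS*. Receptor and PI3K subunits were thus higher and the AKT genes lower on the TPM scale, with *Irs2* and the FOXO genes between them.

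The 9 ratios ran broadly against GC content, with *Irs1*, *Foxo3* and *Irs2* above genes of lower GC content. Over the 14995 genes with a sequence, the Spearman coefficient of the log2 ratio was -0.67 with GC content and 0.35 with transcript length, given as a description since genes are not independent replicates. All genes were divided into 10 equal groups by GC content. The median log2 ratio of the group was 0.72 for *Pik3r1* (GC content 44.9%), 0.48 for *Insr* (46.8%) and 0.14 for *Foxo1* (48.5%). It was -0.12 for *Irs1* (50.3%), -0.33 for *Foxo3* (53.2%), -0.50 for *Akt2* (55.2%) and -0.61 for *Irs2* (56.6%). *Insr*, *Irs1*, *Irs2*, *Pik3r1*, *Pik3ca*, *Foxo1*, *Foxo3* and *Akt1* were above the median of their group, *Akt1* at -0.68 beside -0.69, and *Akt2* was below it. The long transcripts of this pathway were a further shared property, since 8 of the 9 genes were longer than the median transcript of 3107 bases. *Insr*, *Irs1*, *Pik3r1*, *Pik3ca*, *Foxo1* and *Foxo3* fell in the group of the longest transcripts, of which 48.2% were above 2-fold.

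**Figure D4:**
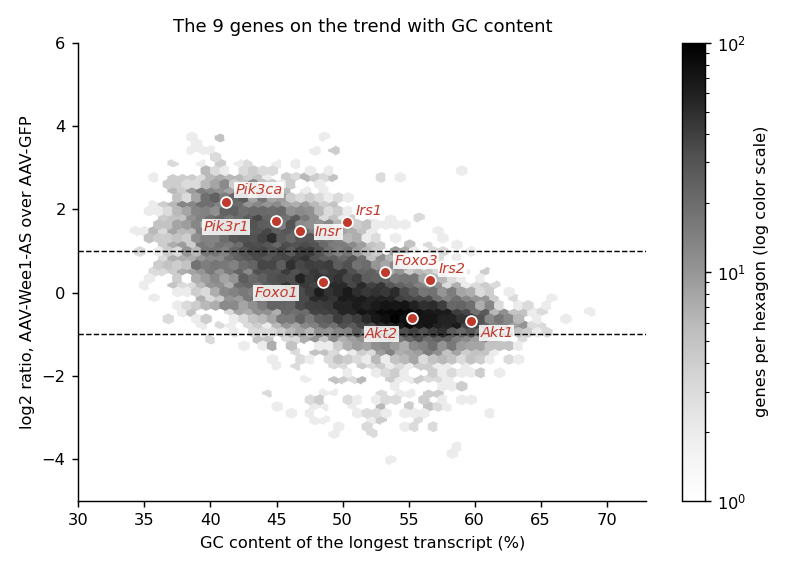
Log2 ratio (y axis) against the GC content of the longest transcript in percent (x axis) for the genes compared, as hexagons shaded by the number of genes on a log color scale, with the 9 genes as red points. Dashed lines mark 2-fold; *Pik3ca* at 41.2% has the highest and *Akt1* at 59.7% the lowest log2 ratio of the red points, those between are not in strict order, and *Irs1* lies farthest above the median of its GC group, 1.68 beside -0.12.

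The remainder of the pathway was described by 8 lists with 104 genes in the table, of which 101 passed the count filter. Of these, 22 were above 2-fold (21.8%, beside 22.2% of all genes) and 5 were below 0.5-fold (4.95%, beside 8.71%). The median log2 ratio was -0.04, beside -0.02 for all genes. With the settings used throughout, the lists thus held no larger share of genes past 2-fold (26.7%) than all genes did (31.0%). Their share was slightly larger with the leading transcript alone, 40 of 101 beside 5803 of 15782 genes. It was also slightly larger on TPM (14 beside 2046 of 15857) and FPKM (9 beside 1336) with a pseudocount of 1. Of the 22 higher genes, 20 had a GC content under the median of all genes, and all 5 lower genes had one above it. All genes showed the same pattern. In their group of lowest GC content, 65.3% were above 2-fold and 1.13% below 0.5-fold. In the group of highest GC content, 1.2% were above and 20.6% below. The GC contents of the higher and lower genes are thus not read as particular to the lists. With the trends removed, 5 were above 2-fold and 3 below 0.5-fold (*Irs3*, *Grb14* and *Ppp2ca*).

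Among receptors and docking proteins, 2 of 10 were above 2-fold and 1 below 0.5-fold. *Sos1* and *Sos2*, exchange factors that lead to RAS, had 436 and 217 counts in AAV-GFP and 1295 and 563 in AAV-*Wee1-AS*, log2 ratios of 1.83 and 1.63. The gene below was *Irs3*, named after its values were seen, a docking protein with 25 counts in AAV-GFP and 0 in AAV-*Wee1-AS*, at least 6.94-fold lower against the floor of 3 counts. *Insrr* and *Irs4* had 0 counts in both libraries, which allows up to 3 counts in each.

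Of the other 7 PI3K subunits, 2 were above 2-fold and none below 0.5-fold. *Pik3cb*, which encodes the catalytic subunit p110β, had 399 and 1053 counts, a log2 ratio of 1.66 (1.5 to 1.83). *Pik3r3*, a regulatory subunit, had 51 and 121 counts, a log2 ratio of 1.47 (1.03 to 2.01). *Pik3r2*, which encodes the regulatory subunit p85β and had the most counts of the list over both libraries together, went the other way, with 1994 and 921 counts and a log2 ratio of -0.85 (-0.96 to -0.74).

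Of 11 kinases that act on or with AKT, 4 were above 2-fold and none below 0.5-fold. *Rictor*, a subunit of the mTORC2 complex that phosphorylates AKT, had 123 and 413 counts (log2 ratio 1.99). *Pdpk1*, the kinase that activates AKT at the membrane, had 443 and 1305 counts (1.82). *Mtor*, the catalytic subunit of mTORC2, had 3898 and 3109 counts (-0.06).

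Of 14 AKT substrates and genes of the mTORC1 arm, 3 were above 2-fold. *Pde3b*, a phosphodiesterase through which insulin lowers cyclic AMP, had 982 and 3533 counts (log2 ratio 2.11). *Rps6kb1*, the S6 kinase, had 233 and 693 counts (1.83), and *Tbc1d4*, which holds back glucose transporter vesicles, had 90 and 168 (1.15). *Tsc2*, the brake on mTORC1 that AKT releases, had the most counts of the list over both libraries together, 4179 and 2516 (-0.47).

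Of 19 brakes on insulin signaling, 4 were above 2-fold and 1 below 0.5-fold. *Phlpp2*, a phosphatase of AKT, had 70 and 157 counts (1.40), and *Ptpn2*, a tyrosine phosphatase, had 167 and 294 (1.07). *Trib3*, a pseudokinase that binds AKT, had 694 and 185 counts, a log2 ratio of -1.63 (-1.89 to -1.41), the lowest of this list. *Inpp4b*, a phosphatase named after its values were seen, had 0 and 18 counts, at least 7.203-fold higher against the floor of 3 counts.

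Of 12 FOXO relatives and partners, 2 were above 2-fold and 1 below 0.5-fold. *Creb1*, the factor of the fasting response to cyclic AMP, had 96 and 404 counts (log2 ratio 2.31), and *Sirt1*, a deacetylase that acts on FOXO1, had 113 and 356 (1.9). *Ywhae*, one of the 14-3-3 proteins that hold phosphorylated FOXO in the cytoplasm, had 9069 and 6841 counts (-0.14). The gene below was another 14-3-3 protein, *Sfn*, named after its values were seen, with 59 and 21 counts.

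Of 17 genes that FOXO1 activates, 4 were above 2-fold and 1 below 0.5-fold, and the median log2 ratio was 0.17. The sign of this median turned with upper quartile factors (-0.03) and with the trends removed (-0.22). *Fbxo32*, a ubiquitin ligase subunit, had 61 and 169 counts (1.70), and the sestrins *Sesn3* and *Sesn1*, which act on mTORC1, had 120 and 293 (1.53) and 246 and 556 (1.43). *Sesn1* stayed above 2-fold with the trends removed, at 1.36. *Igfbp1*, whose promoter is printed above, was the gene below 0.5-fold, and had a log2 ratio of -0.88 with the trends removed. The genes of glucose output, given outside the naming rule for their role, were *Pck1* with 65881 and 61831 counts (0.17) and *G6pc* with 8514 and 9761 (0.46), both within 2-fold. The list thus held genes on both sides of a log2 ratio of 0, 10 above and 7 below.

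Of 11 lipogenic genes that insulin induces, 1 was above 2-fold and 1 below 0.5-fold. *Elovl6*, which lengthens fatty acids, had 1506 and 5785 counts, a log2 ratio of 2.20 and 1.02 with the trends removed. *Thrsp*, a regulator of lipogenesis named after its values were seen, had 29695 and 38988 counts (0.66) and was also above 2-fold with the trends removed, at 1.06. *Pnpla3*, a lipid droplet lipase, had 137 and 50 counts, a log2 ratio of -1.16 (-1.69 to -0.71). *Fasn*, fatty acid synthase, had 88364 and 45025 counts (-0.71).

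**Figure D5:**
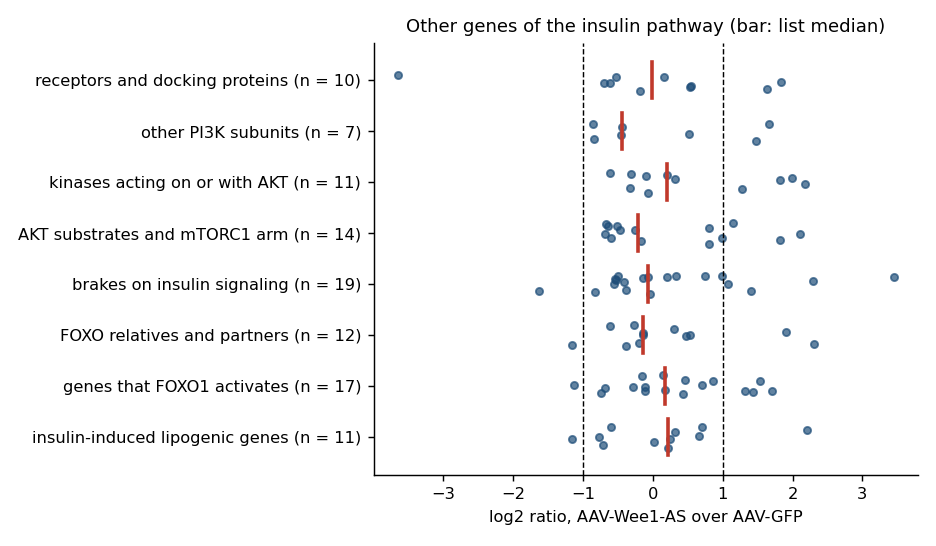
Log2 ratios (x axis, AAV-*Wee1-AS* over AAV-GFP) of the 101 other pathway genes, 1 point per gene, by list (y axis, n is the number of genes compared). Red bars mark list medians, which lie between -0.45 and 0.22, and dashed lines mark 2-fold.

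The labelled tissue was checked against marker lists. Hepatocyte markers summed to 71747 scaled CPM (counts scaled to library size) in AAV-GFP and 90081 in AAV-*Wee1-AS*, and all 6 were detected. The higher sum came from *Alb* (2542754 and 3065513 counts) and *Apob*, and the other 4 of these markers were lower, with a median log2 ratio of -0.04 over the 6. The sums for Kupffer cells and macrophages were 556 and 406 CPM (*Timd4* above 2-fold and *Adgre1* at 0.09, the other 4 lower), for endothelial cells 255 and 233, for cholangiocytes 38.2 and 34.3, and for lymphocytes 5.50 and 8.19. The higher lymphocyte sum came from *Ptprc* (154 and 283 counts) and *Ms4a1* (0 and 23), and the other 3 of these 5 markers were lower. Stellate cell markers summed to 400 and 260 CPM, where *Col1a1*, *Col3a1* and *Pdgfrb* were below 0.5-fold and *Lrat* above 2-fold. *Dcn* (0.33) and *Reln* (0.25) were higher within 2-fold, so 3 of these markers were higher and 3 lower. All 4 skeletal muscle markers were at 0 in both libraries, adipocyte markers were at 0.127 CPM or less in sum, and 3 of 4 exocrine pancreas markers were at 0. The fourth, *Cela1*, had 616 and 741 counts (10.9 and 15.7 CPM). The part of such shifts between cell types in the values of the 9 genes was not tested.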

How the data were processed

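The authors deposited 1 table of RefSeq transcripts of the mouse (build mm10) with, for each of the 2 libraries, estimated counts, FPKM (fragments per kilobase, scaled to the library) and TPM. The submitters' processing notes name Trimmomatic 0.38, HISAT2 2.1.0, SAMtools 1.9 and StringTie 2.1.3b. Their settings are not given in the sources used here. The libraries were made with a stranded kit from poly-A RNA, and whether strand was used in counting is not given in the sources used here. The deposited counts are whole numbers shared out among overlapping transcripts. Of those above 0, 99.2% (AAV-GFP) and 99.1% (AAV-Wee1-AS) matched, within 0.001, FPKM multiplied by transcript length and a library constant, then rounded up, so they were derived from coverage and were not tallied reads.

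Counts were summed per gene symbol. Libraries were scaled by TMM (edgeR 4.0.16, R 4.3.3), and log2 ratios were taken with a prior count of 2 for genes that reached 10 counts in either library. With 1 library per group, exact 95% counting intervals replaced tests, past 2-fold meant a ratio above 2 or below 0.5, and a count of 0 was read against a floor of 3 counts. GC content and length came from the longest GENCODE M21 transcript (GRCm38, the same assembly as mm10) and were found for 94.6% of genes. Both trends were fitted across genes by lowess (span 0.3, 5 cycles) and subtracted. Promoters were the 250 bases before each RefSeq start (GRCm38.p6). The scripts (Python 3.11.15) were tested on simulated data. Alternatives were size factors of DESeq2 1.42.0, upper quartile factors, library totals, other filters, a prior count of 0.5, TPM and FPKM with a pseudocount of 1, the leading transcript alone and trend removal.

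Transcripts were named where they held at least 10% of a gene's counts among the 9 genes. From each pathway list, genes past 2-fold with at least 100 counts in a library were named, up to 3 in each direction, with the gene of most counts. Some genes that this rule names are not reported here. The 9 genes and the lists were chosen with earlier results of these data known.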

Additional observations from a re-analysis of the deposited data

How the results depend on the processing

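The number of genes past 2-fold was 4908 (3527 higher, 1381 lower). It was 2046 on TPM and 1336 on FPKM with a pseudocount of 1, which draws genes of low level toward no change, and 2390 with the GC and length trends removed (1108 higher, 1282 lower). Upper quartile factors gave 2938 higher and 2232 lower and shifted the median log2 ratio of all genes by -0.20. Of the 9 genes, 4 were past 2-fold under each other scaling, filter and prior count, 3 on TPM or FPKM (*Irs1* stood at 0.91 and 0.63), and 1 with the trends removed. The signs of *Akt1* (0.09) and *Foxo1* (-0.56) changed with the trends removed and under no other alternative, and the cause was not tested. Of the other pathway genes, 27 were past 2-fold, beside 40 with the leading transcript alone, 14 on TPM, 9 on FPKM and 8 with the trends removed. The number over all genes was also higher with the leading transcript alone, 5803 of 15782. No paired analysis was possible because there was 1 library per group. Depth limited *Irs1*, at 206 counts, and transcripts near 0 counts.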
